A study of Mus musculus with 18 samples.

Results

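The mesenchymal transition factors described here are 10 mouse genes taken by symbol, with no measured value in the rule: the transcription factor genes Snai1, Snai2, Twist1, Twist2, Zeb1, Zeb2 and Prrx1, and the structural genes Cdh2, Vim and Fn1. Each was present in all 3 deposited tables, and they are 10 of the 35310 genes listed in at least one of them. RNA was sequenced from 18 libraries in 6 groups of 3. The groups were sgNAT10 MCA205 cells and wild-type MCA205 cells, sgNAT10 TC1 cells and wild-type TC1 cells, and sgNAT10 TC1 tumours and wild-type TC1 tumours, the tumours having been taken on day 8 after the cells were implanted under the skin of mice. In sgNAT10 cells a CRISPR guide had been directed at Nat10, which encodes the RNA cytidine acetyltransferase, and the series title links the enzyme to MYC, CDK2, DNMT1 and type I interferon. MCA205 cells come from a mouse fibrosarcoma. TC1 cells carry the same tumour name in the labels, but the line is generally known as lung epithelium transformed by viral oncogenes. The labels used here give no guide sequence, no clone, no control guide in the wild-type cells, and no age or strain of the mice, and nothing in them states that libraries of a group were separate cultures or animals. The spread behind each p-value is thus that of the libraries and may be technical.

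In epithelial to mesenchymal transition, cells loosen their junctions and take on a motile, matrix-rich state. SNAI and ZEB proteins are zinc finger repressors that bind E-boxes, short DNA motifs of the form CANNTG, in genes such as Cdh1, while TWIST proteins are basic helix-loop-helix factors and PRRX1 is a homeodomain factor of mesenchyme. N-cadherin, the product of Cdh2, the intermediate filament protein vimentin and the matrix protein fibronectin are common readouts of the state. Fibrosarcoma cells and fibroblasts express many of these genes without passing through a transition, so a level in them marks mesenchymal character and not a change of state.

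Depth was between 51661298 and 78501790 estimated counts per library. Nat10 stood at 11.7 to 16.3 FPKM in sgNAT10 libraries and at 12.5 to 16.2 FPKM in wild-type libraries, and it was not called in any comparison (adjusted p of 0.984 in MCA205 cells, 0.161 in TC1 cells and 0.336 in tumours). Since an edit can disable a protein without reducing its mRNA, the labels are not checked by these levels, and sgNAT10 means the libraries labelled so. Liver and intestine transcripts were present in libraries of cultured cells. The 12 liver markers summed to between 1019 and 1326 FPKM in sgNAT10 TC1 cells, with Alb at 434 FPKM on average, against 714 to 1298 FPKM in wild-type TC1 cells. In MCA205 cells their sum was 0.287 to 21.9 FPKM in sgNAT10 cells and 0.105 to 72.7 FPKM in wild-type cells, and in tumours 507 to 562 FPKM in the sgNAT10 group and 0.0178 to 219 FPKM in the wild-type group. Wild-type MCA205 library 2 also held skeletal muscle markers at a sum of 76.3 FPKM and epidermis markers at 41.8 FPKM. The other wild-type MCA205 libraries had at most 2.75 and 0.756 FPKM of these. In bulk RNA of this kind, fewer cells of a type and less RNA per cell cannot be told apart.

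Snai2, Twist2 and Prrx1 moved in opposite directions in the 2 cell lines, while Cdh2 and Fn1 fell in both. In sgNAT10 MCA205 cells, Prrx1, Snai2, Twist2, Vim and Zeb2 rose and Cdh2 and Fn1 fell. In sgNAT10 TC1 cells, Snai2, Twist2, Fn1, Prrx1, Zeb1 and Cdh2 fell and no member rose. In the tumours Snai1 alone passed the test, and it rose. A gene was called at an adjusted p under 0.05 in edgeR quasi-likelihood tests over all genes, and all 10 members passed the expression filter in each comparison. The 7 members called in MCA205 cells stand beside 40.6% of all 18101 genes tested, the 6 in TC1 cells beside 37.9% of 18823, and the 1 in tumours beside 17.4% of 19244. By direction, 21.2% of all genes were called higher and 19.4% lower in MCA205 cells, 15.9% and 22% in TC1 cells, and 7.65% and 9.72% in tumours. In TC1 cells and in tumours that split depended on the scaling. TC1 cells had 2991 higher and 4135 lower genes with TMM factors, at a median log2 fold change of -0.08. With RLE factors they had 3389 higher and 3417 lower, at a median of -0.01. Tumours had 1473 higher and 1870 lower genes with TMM factors and a median log2 fold change of 0.02. With library size alone they had 1505 higher and 1223 lower, where the median of all genes was 0.13. FPKM follows library size, so the tumour levels below carry that shift. The members' median log2 fold change of sgNAT10 over wild type was 0.22 in MCA205 cells, where all genes had a median of -0.03. It was -0.70 in TC1 cells, against -0.08 for all genes, and 0.17 in tumours, against 0.02. The 3 sgNAT10 libraries and the 3 wild-type libraries did not overlap in FPKM for 8 members in MCA205 cells, 9 in TC1 cells and 5 in tumours, while 52.6%, 50.8% and 40.4% of all genes tested in those comparisons did not overlap.

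**Figure D1:**
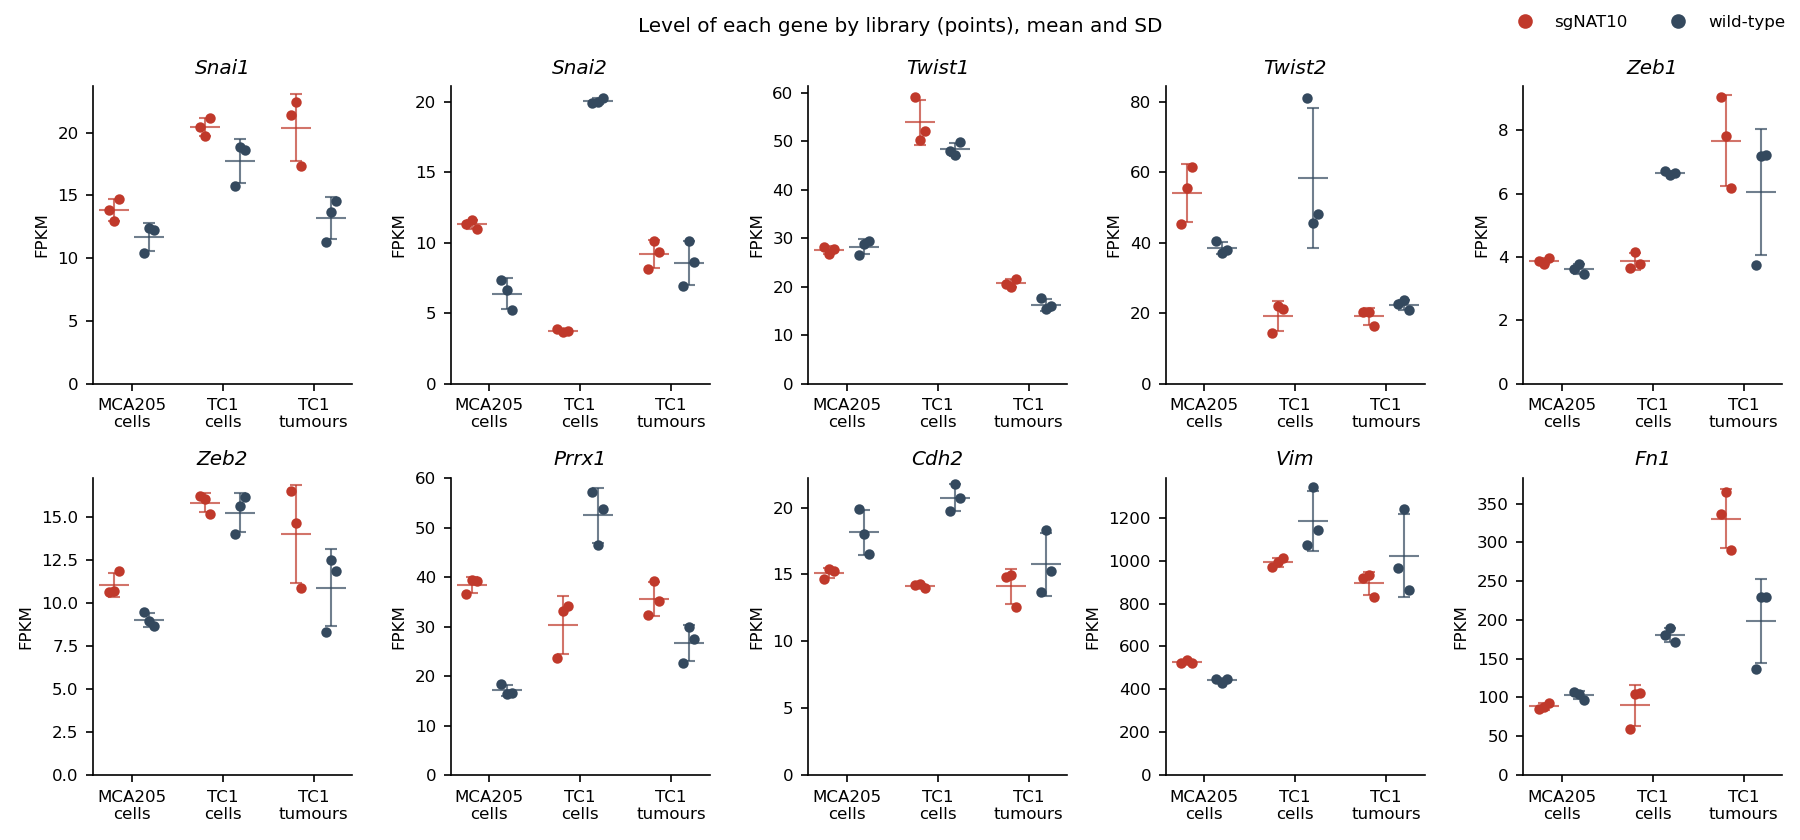
FPKM of the 10 genes in each library (points), with the mean and SD of 3 libraries, for sgNAT10 and wild type in MCA205 cells, TC1 cells and TC1 tumours. Snai2 lies at 3.67 to 3.84 FPKM in sgNAT10 TC1 cells and at 19.9 to 20.3 FPKM in wild-type TC1 cells, and Prrx1 at 36.6 to 39.4 FPKM in sgNAT10 MCA205 cells and at 16.4 to 18.5 FPKM in wild-type MCA205 cells.

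Among the SNAI genes, Snai2, which encodes the repressor SLUG, had the widest contrast in TC1 cells. Snai2, on chromosome 16 from 14705852 to 14709385 (mm10, as are all positions here), was listed at 3.84, 3.67 and 3.70 FPKM in sgNAT10 TC1 cells, against 19.9, 20.0 and 20.3 FPKM in wild-type TC1 cells. The groups lie far apart, with almost no spread inside either. The log2 fold change was -2.47 with an approximate SE of 0.07 (adjusted p = 7.62e-06). In MCA205 cells the order was the other way round, at 11.4, 11.6 and 11 FPKM in sgNAT10 cells against 7.36, 6.63 and 5.2 FPKM in wild-type cells, and every sgNAT10 library was above every wild-type one. That rise was 0.83 ± 0.13 on the log2 scale (SE, adjusted p = 0.00201). The tumours showed neither pattern. They held 8.12, 10.2 and 9.36 FPKM in the sgNAT10 group and 6.95, 10.1 and 8.66 FPKM in the wild-type group, which overlap, and the log2 fold change was 0.00 ± 0.15 (adjusted p = 0.999).

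Snai1, the founding member of the family and the SNAIL repressor, was called in the tumours. It lies on chromosome 2 from 167538195 to 167542814. Its tumour levels were 21.4, 22.4 and 17.3 FPKM in the sgNAT10 group, against 11.3, 13.7 and 14.6 FPKM in the wild-type group, with no overlap. The log2 fold change was 0.52 ± 0.12 (adjusted p = 0.0311). This call was lost without wild type 2 or without any 1 of the 3 sgNAT10 libraries, when the adjusted p was between 0.0526 and 0.140 and the log2 fold change between 0.46 and 0.61. It was also lost with no filter (adjusted p = 0.0524), a 1.2-fold minimum (0.0900), a replicate block (0.0990) and a covariate of the liver and intestine level (0.141), which was chosen after seeing the data and runs with the genotype. In TC1 cells Snai1 had 20.5, 19.7 and 21.2 FPKM with sgNAT10, against 15.8, 18.9 and 18.6 FPKM in wild type. The values do not overlap, yet the log2 fold change of 0.16 ± 0.09 did not pass (adjusted p = 0.225). MCA205 cells had 13.8, 13.0 and 14.7 FPKM with sgNAT10 and 10.4, 12.4 and 12.2 FPKM in wild type, a difference of 0.25 ± 0.08 that lay just outside the threshold (adjusted p = 0.0523).

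The 2 TWIST genes, which encode close relatives active in cranial, limb and skin mesenchyme, also separated. Twist1, on chromosome 12 from 33957671 to 33959829, was not called in any comparison. It had 59.2, 50.3 and 52.2 FPKM in sgNAT10 TC1 cells against 48.0, 47.0 and 49.8 FPKM in wild-type TC1 cells (log2 fold change 0.11 ± 0.08, adjusted p = 0.325). In MCA205 cells it ranged from 26.7 to 28.2 FPKM with sgNAT10 and from 26.4 to 29.4 FPKM in wild type (adjusted p = 0.730). The tumours held 20.0 to 21.6 FPKM in the sgNAT10 group and 15.3 to 17.6 FPKM in the wild-type group, which do not overlap, but the fitted difference of 0.22 ± 0.15 did not pass (adjusted p = 0.320).

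Twist2, on chromosome 1 from 91801461 to 91848028, fell in TC1 cells and rose in MCA205 cells. Its levels were 14.4, 21.9 and 21.1 FPKM in sgNAT10 TC1 cells, against 81.1, 45.6 and 48.1 FPKM in wild-type TC1 cells. Wild type 1 stood well above the other 2 wild-type libraries and sgNAT10 1 below the other 2 sgNAT10 libraries, and the groups did not overlap. In sgNAT10 1 of TC1 and MCA205 cells, 30.5% and 29.3% of Twist2 counts were assigned to Twist2-202, of 2525 bases. The main transcript has 1329 bases, so this assignment lowers the summed FPKM for a given count. In estimated counts sgNAT10 TC1 library 1 was also lowest, at 1362 against 1866 and 1815. The log2 fold change was -1.59 ± 0.23 (adjusted p = 0.00192), and with 1 library left out it lay between -1.69 and -1.18 and stayed called. In MCA205 cells Twist2 had 45.2, 55.5 and 61.5 FPKM with sgNAT10 against 40.5, 37.0 and 37.9 FPKM in wild type (log2 fold change 0.56 ± 0.06, adjusted p = 0.00055). The tumours held 20.4, 20.4 and 16.3 FPKM in the sgNAT10 group and 22.5, 23.8 and 20.9 FPKM in the wild-type group, and the difference of -0.36 ± 0.15 was not called (adjusted p = 0.142). A large part of the Twist2 reference transcript cannot be told from an antisense gene without strand, since 50% of its stretches of 50 bases occur in reverse in Gm29100. That gene was listed at 0.786 to 1.90 FPKM in sgNAT10 TC1 cells and 1.65 to 3.27 FPKM in wild-type TC1 cells. In MCA205 cells it had 3.28 to 6.45 FPKM with sgNAT10 and 2.74 to 4.03 FPKM in wild type, so it was under the Twist2 level in each of these libraries.

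Zeb1 and Zeb2 encode large zinc finger and homeodomain repressors, and each was called in 1 of the 2 lines. Zeb1, on chromosome 18 from 5591860 to 5775467, fell in TC1 cells, at 3.64, 4.16 and 3.78 FPKM with sgNAT10 against 6.71, 6.60 and 6.66 FPKM in wild type. No sgNAT10 library came near a wild-type one, and the log2 fold change was -0.80 ± 0.07 (adjusted p = 0.000241). In MCA205 cells it had 3.77 to 3.96 FPKM with sgNAT10 and 3.47 to 3.77 FPKM in wild type (0.05 ± 0.05, adjusted p = 0.499). The tumours spread widely, at 9.05, 7.82 and 6.17 FPKM in the sgNAT10 group and 3.75, 7.18 and 7.21 FPKM in the wild-type group (0.11 ± 0.22, adjusted p = 0.744).

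Zeb2 lies on chromosome 2 from 44983632 to 45117395. It rose slightly in MCA205 cells, to 10.6, 10.7 and 11.9 FPKM with sgNAT10, against 9.47, 8.96 and 8.64 FPKM in wild type. This difference of 0.18 ± 0.06 (adjusted p = 0.0358) was the smallest called among the members and was lost without sgNAT10 1, sgNAT10 3, wild type 2 or wild type 3, when the adjusted p was between 0.0517 and 0.106. TC1 cells had 15.2 to 16.2 FPKM with sgNAT10 and 14 to 16.1 FPKM in wild type, which overlap, and tumours 10.9 to 16.5 FPKM and 8.32 to 12.5 FPKM in the same order. Neither difference was called (log2 fold changes of -0.02 ± 0.05 and 0.29 ± 0.11, adjusted p of 0.773 and 0.115).

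Prrx1, a homeobox gene of limb and craniofacial mesenchyme on chromosome 1 from 163245119 to 163313710, had the largest rise of the 10 genes in MCA205 cells. Levels stood at 36.6, 39.4 and 39.3 FPKM with sgNAT10, against 18.5, 16.4 and 16.5 FPKM in wild type. All sgNAT10 libraries lay at about the same high level, and the log2 fold change was 1.18 ± 0.06 (adjusted p = 1.24e-05). In TC1 cells it fell, to 23.6, 33.2 and 34.1 FPKM with sgNAT10, against 57.2, 46.4 and 53.8 FPKM in wild type (-0.84 ± 0.15, adjusted p = 0.00409). As with Twist2, sgNAT10 1 was the lowest library there. Tumours had 32.3, 39.2 and 35.1 FPKM in the sgNAT10 group and 22.6, 29.9 and 27.6 FPKM in the wild-type group, without overlap, and the difference of 0.31 ± 0.12 did not pass (adjusted p = 0.108).

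**Figure D2:**
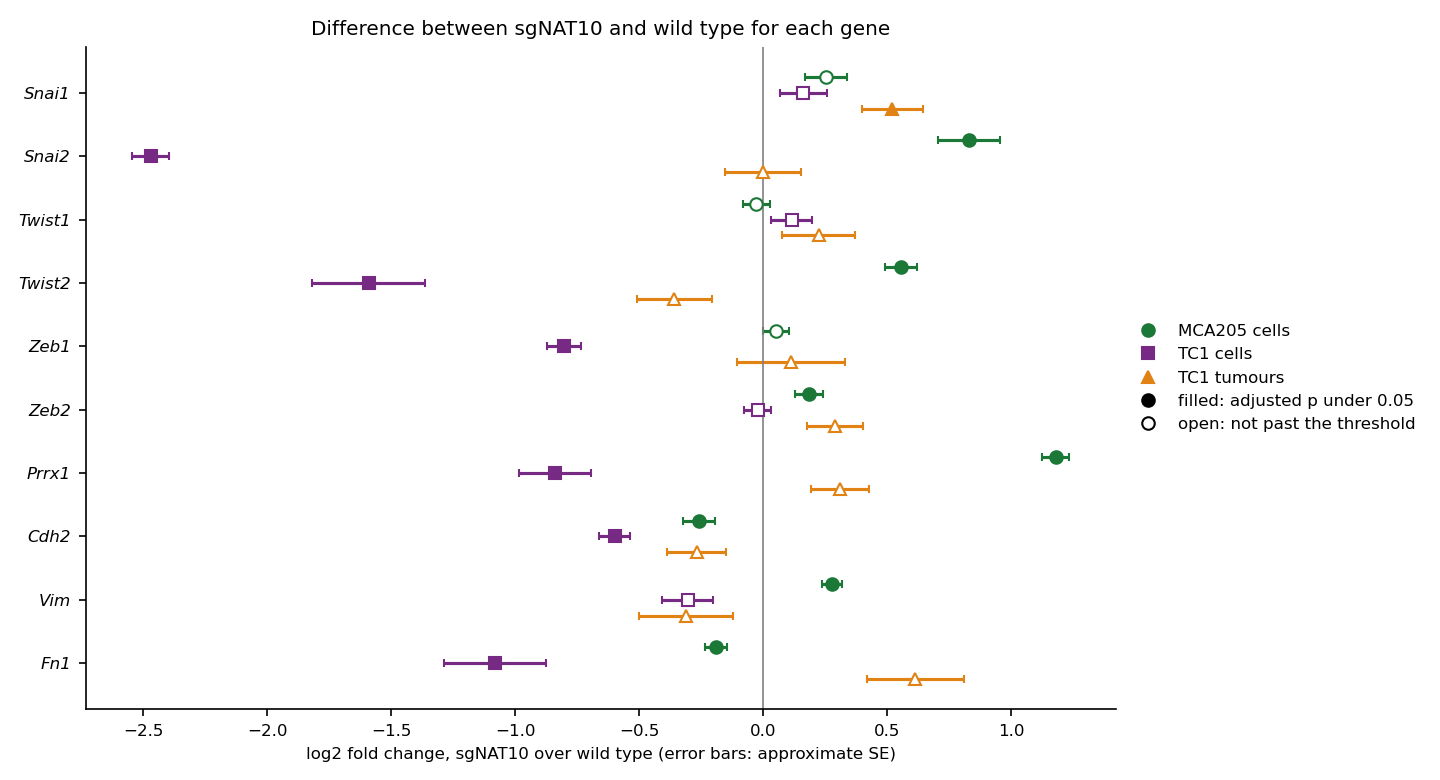
Log2 fold change of sgNAT10 over wild type (horizontal axis, error bars approximate SE) for each gene in MCA205 cells, TC1 cells and TC1 tumours, filled where the adjusted p is under 0.05. Snai2, Twist2 and Prrx1 lie at -2.47, -1.59 and -0.84 in TC1 cells and at 0.83, 0.56 and 1.18 in MCA205 cells.

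Cdh2, the gene of N-cadherin, on chromosome 18 from 16588877 to 16809246, fell in both lines. It had 14.2, 14.3 and 14 FPKM in sgNAT10 TC1 cells, against 19.7, 21.8 and 20.7 FPKM in wild-type TC1 cells (log2 fold change -0.60 ± 0.06, adjusted p = 0.000511). MCA205 cells held 14.7, 15.4 and 15.3 FPKM with sgNAT10 and 19.9, 18 and 16.6 FPKM in wild type, a smaller difference of -0.26 ± 0.07 (adjusted p = 0.0189) with no overlap. In tumours the range was 12.6 to 15 FPKM in the sgNAT10 group and 13.7 to 18.3 FPKM in the wild-type group, and the difference was not called (-0.27 ± 0.12, adjusted p = 0.155).

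Vim, the vimentin gene on chromosome 2 from 13573927 to 13582826, was the most abundant member in every library. It rose in MCA205 cells, to 522, 536 and 523 FPKM with sgNAT10, against 448, 431 and 447 FPKM in wild type (0.28 ± 0.04, adjusted p = 0.00175). In TC1 cells the levels were 972, 995 and 1012 FPKM with sgNAT10 and 1072, 1343 and 1143 FPKM in wild type. Those groups do not overlap either, but the difference of -0.31 ± 0.10 was just outside the threshold (adjusted p = 0.0547). With 1 library left out that difference was smaller, at -0.27 to -0.17 (adjusted p of 0.0928 to 0.322). The tumour ranges of 831 to 934 FPKM in the sgNAT10 group and 865 to 1240 FPKM in the wild-type group overlap (adjusted p = 0.280).

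Fn1, the fibronectin gene on chromosome 1 from 71585520 to 71653200, fell in TC1 cells. Levels were 59.4, 105 and 106 FPKM with sgNAT10, against 180, 189 and 171 FPKM in wild type, and sgNAT10 1 was again the lowest library. The log2 fold change was -1.08 ± 0.21 (adjusted p = 0.00615). In MCA205 cells Fn1 fell less, to 84.6, 87.9 and 92.9 FPKM with sgNAT10, against 107, 105 and 96.7 FPKM in wild type (-0.19 ± 0.04, adjusted p = 0.0126). That call was lost when wild type 1 and sgNAT10 2, the libraries low in liver and intestine transcripts, were both left out (-0.15, adjusted p = 0.0559). In tumours Fn1 had 336, 365 and 290 FPKM in the sgNAT10 group and 137, 229 and 230 FPKM in the wild-type group, which do not overlap, but the difference of 0.61 ± 0.20 did not pass (adjusted p = 0.0699). It passed in 4 alternatives: DESeq2 (adjusted p = 0.00723), a 1 CPM filter (0.0454), and limma-trend at pseudocounts of 1 and 0.1 (0.0419 and 0.0481). Over all alternatives the adjusted p ran up to 0.295. The liver markers, too, did not overlap between the groups. They summed to 507, 562 and 538 FPKM in sgNAT10 tumours 1 to 3 and to 0.0178, 55.3 and 219 FPKM in wild-type tumours 1 to 3, and their part in the level of Fn1 was not tested. A covariate of the liver and intestine level, chosen after seeing the data, gave 0.33 ± 0.17 (adjusted p = 0.295), but it runs with the genotype and would take up a difference of any source.

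The 7 transcription factor genes together gave a summed level of 160 ± 10.2 FPKM in sgNAT10 MCA205 cells and 115 ± 1.48 FPKM in wild-type MCA205 cells (SD, n = 3). In TC1 cells the sum was 147 ± 5.24 FPKM with sgNAT10 and 219 ± 21.8 FPKM in wild type, and in tumours 127 ± 9.03 FPKM and 104 ± 9.92 FPKM in the same order. FPKM is per transcript length, so these levels can be added and compared between genes. Twist1 took 36.7 ± 4.49% of the sum in sgNAT10 TC1 cells and 22.2 ± 2.11% in wild-type TC1 cells, while Twist2 took 12.9 ± 2.44% and 26.2 ± 6.21%. Snai2 held 2.54 ± 0.153% with sgNAT10 and 9.24 ± 0.924% in wild type. In MCA205 cells the main shift in makeup was in Prrx1, at 24.0 ± 0.805% with sgNAT10 and 15 ± 0.819% in wild type, and in Twist1, at 17.3 ± 1.40% and 24.6 ± 1.67%. Tumours differed most in Twist2, which took 15 ± 0.985% of the sum in the sgNAT10 group and 21.6 ± 2.35% in the wild-type group.

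**Figure D3:**
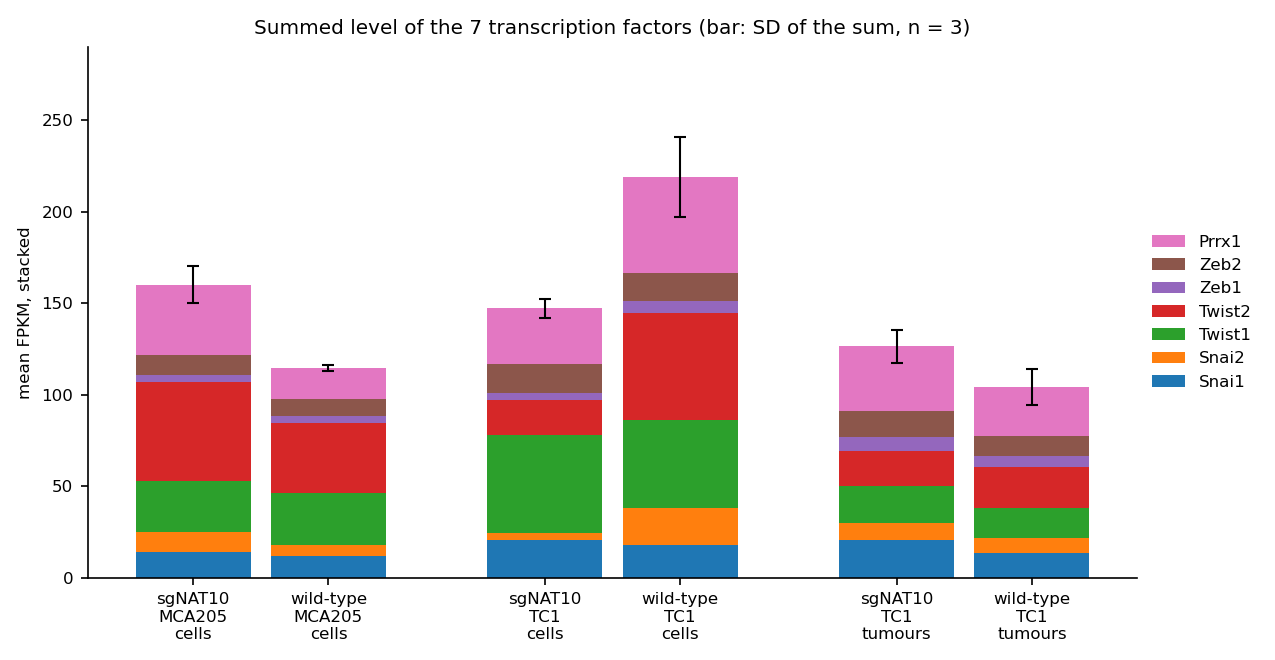
Mean FPKM of the 7 transcription factor genes, stacked, in each group, with the SD of the sum over 3 libraries. The sums are 160 and 115 FPKM in sgNAT10 and wild-type MCA205 cells, 147 and 219 FPKM in sgNAT10 and wild-type TC1 cells, and 127 and 104 FPKM in sgNAT10 and wild-type tumours.

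Ratios of paralogs within a library do not depend on its scaling, and they are given as a description with no test. Snai1 over Snai2 was 5.48 ± 0.215 in sgNAT10 TC1 cells and 0.883 ± 0.0816 in wild-type TC1 cells (SD, n = 3). In MCA205 cells that ratio was 1.23 ± 0.111 with sgNAT10 and 1.88 ± 0.471 in wild type, and in tumours 2.23 ± 0.393 and 1.56 ± 0.176. The more abundant SNAI gene was therefore Snai1 in every group except wild-type TC1 cells. Twist1 over Twist2 was 2.96 ± 1.01 in sgNAT10 TC1 cells and 0.886 ± 0.255 in wild-type TC1 cells, 0.519 ± 0.0935 and 0.736 ± 0.0709 in sgNAT10 and wild-type MCA205 cells, and 1.10 ± 0.191 and 0.730 ± 0.0759 in sgNAT10 and wild-type tumours. Zeb1 stayed under Zeb2 throughout. Their ratio was 0.244 ± 0.0175 in sgNAT10 TC1 cells and 0.438 ± 0.0362 in wild-type TC1 cells, and between 0.350 and 0.550 in the means of the other 4 groups.

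**Figure D4:**
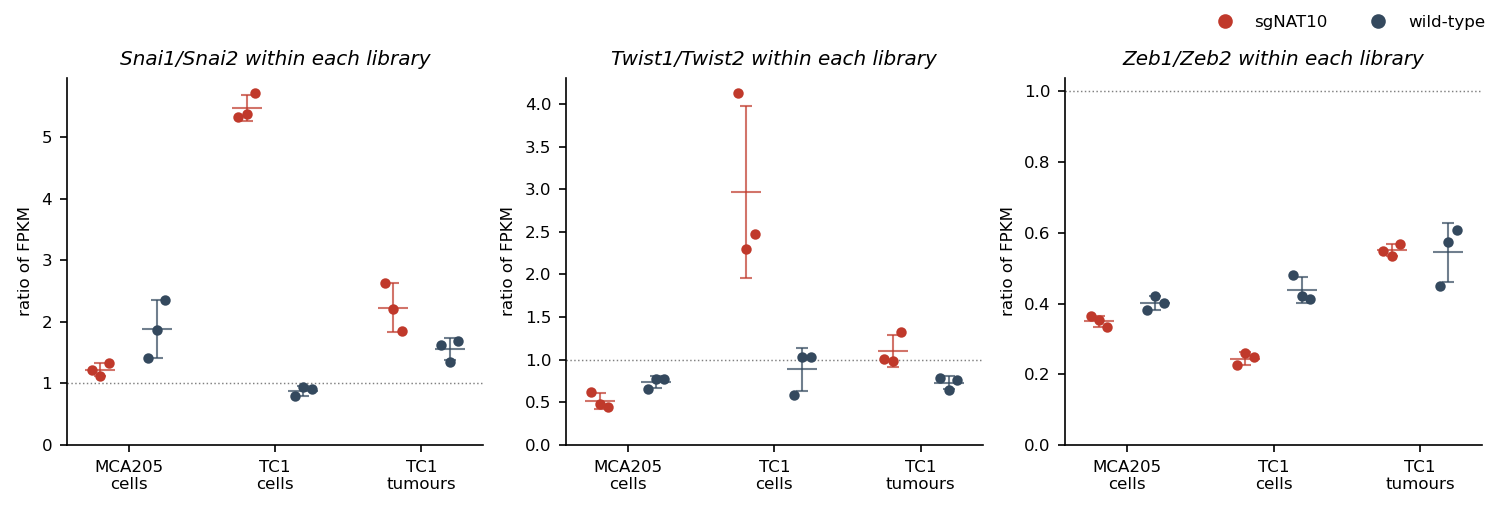
Ratio of FPKM between paralogs in each library (points, with mean and SD of 3), for sgNAT10 and wild type, the dotted line marking a ratio of 1. In sgNAT10 TC1 cells Snai1/Snai2 lies at 5.33 to 5.72, against 0.790 to 0.943 in wild-type TC1 cells.

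Promoter sequences of 4 of these factor genes are shown because the genes behaved differently: Snai1 and Twist1 were not called in either cell line, while Twist2 and Prrx1 were called in opposite directions in the 2 lines. Each window runs from 250 bases before to 50 bases after the transcription start in the RefSeq table for GRCm38.p6, the assembly also called mm10, and is written 5′ to 3′ on the strand of the gene. Capitals mark CpG, the dinucleotide that DNA methyltransferases such as DNMT1 act on.
Snai1, chr2:167537945-167538244, plus strand: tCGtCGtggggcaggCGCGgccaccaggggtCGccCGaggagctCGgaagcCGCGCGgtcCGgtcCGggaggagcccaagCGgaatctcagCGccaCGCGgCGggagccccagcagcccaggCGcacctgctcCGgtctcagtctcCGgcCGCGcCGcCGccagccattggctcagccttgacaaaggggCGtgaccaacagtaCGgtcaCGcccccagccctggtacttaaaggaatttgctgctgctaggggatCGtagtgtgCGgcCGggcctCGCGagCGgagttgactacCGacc
Twist1, chr12:33957421-33957720, plus strand: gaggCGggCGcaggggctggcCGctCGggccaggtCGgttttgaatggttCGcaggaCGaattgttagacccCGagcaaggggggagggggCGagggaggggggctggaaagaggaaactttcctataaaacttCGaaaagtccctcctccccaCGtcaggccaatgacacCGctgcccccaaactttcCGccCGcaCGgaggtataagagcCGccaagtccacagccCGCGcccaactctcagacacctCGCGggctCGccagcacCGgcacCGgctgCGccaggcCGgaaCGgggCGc
Twist2, chr1:91801211-91801510, plus strand: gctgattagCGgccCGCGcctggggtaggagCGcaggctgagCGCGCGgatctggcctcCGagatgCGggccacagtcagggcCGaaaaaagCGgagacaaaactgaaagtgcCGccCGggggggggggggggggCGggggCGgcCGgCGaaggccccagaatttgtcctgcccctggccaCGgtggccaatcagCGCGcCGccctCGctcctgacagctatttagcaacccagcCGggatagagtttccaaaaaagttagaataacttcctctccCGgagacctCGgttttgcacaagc
Prrx1, chr1:163313601-163313900, minus strand: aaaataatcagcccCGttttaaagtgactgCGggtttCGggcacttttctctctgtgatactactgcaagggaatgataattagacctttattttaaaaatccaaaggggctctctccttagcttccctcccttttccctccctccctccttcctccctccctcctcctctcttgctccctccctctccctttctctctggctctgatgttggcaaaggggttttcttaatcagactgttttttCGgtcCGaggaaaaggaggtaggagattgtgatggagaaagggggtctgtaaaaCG
The Snai1 window holds 34 CpG, the Twist1 window 27, the Twist2 window 25 and the Prrx1 window 6, beside a median of 7 over all 32851 windows of the same length. The genes called in opposite directions in the lines thus differ in CpG number between themselves. Of the other members, Vim had 1 window with 11 CpG and Zeb2 had 4 windows with 8 to 19. The E-box CACCTG, searched on both strands (as CACCTG and CAGGTG), was found once in the Snai1 window, with its first base 126 bases before the start, and in none of the windows of Twist1, Twist2, Prrx1, Vim or Zeb2. It occurs in 20.2% of all windows, and the wider form CANNTG, which includes it, in 72.3%. The Snai1 match was also the only CANNTG match in the members' windows. These matches describe letters only.

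Set side by side across the 3 tables, which may have been normalised separately, the 6 groups ranked differently for each gene. Snai2, Twist2, Prrx1, Cdh2 and Vim were all highest in wild-type TC1 cells. For Snai2 and Prrx1 that group did not overlap the next one, whereas for Twist2, Cdh2 and Vim it did. Snai2 was lowest in sgNAT10 TC1 cells, below wild-type MCA205 cells with no overlap. Fn1 was highest in sgNAT10 tumours, without overlap with wild-type tumours, and was lowest in sgNAT10 MCA205 cells, which overlapped sgNAT10 TC1 cells. Twist1 ran from TC1 cells through MCA205 cells to tumours, and its only overlapping neighbours were the MCA205 groups. Zeb2 had overlap between every pair of neighbours in its order, from sgNAT10 TC1 cells at the top to wild-type MCA205 cells at the bottom, and so did Zeb1.

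The effect of sgNAT10 differed between the lines for 7 members when the difference itself was tested over the 12 libraries of cultured cells, and each was higher in MCA205 cells (36% of all genes were called in this contrast, 19.2% higher and 16.7% lower). Snai2 had the largest difference, 3.25 ± 0.15 on the log2 scale (adjusted p = 1.61e-07), followed by Twist2 at 2.09 ± 0.26 and Prrx1 at 1.97 ± 0.18. Between tumours and TC1 cells 5 members differed, all higher in tumours (28.2% of all genes called, 13.1% higher and 15.1% lower), led by Snai2 at 2.40 ± 0.16 and Fn1 at 1.63 ± 0.29. These contrasts reuse the TC1 cell libraries, so they are not independent of each other.

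Cdh1, the E-cadherin gene that SNAI and ZEB proteins repress, had 3.43, 2.81 and 2.39 FPKM in sgNAT10 TC1 cells, against 4.96, 6.74 and 1.61 FPKM in wild-type TC1 cells, which overlap (log2 fold change -0.66 ± 0.47, adjusted p = 0.321). MCA205 levels of Cdh1 were 1.72, 0.0305 and 1.84 FPKM with sgNAT10 and 0.209, 4.52 and 2.20 FPKM in wild type, and tumours ranged from 1.51 to 3.77 FPKM and from 1.25 to 3.59 FPKM (adjusted p of 0.639 in MCA205 cells and 0.835 in tumours). In both cell lines the level of Cdh1 went with the intestine markers. In TC1 cells the intestine sums were 444, 286 and 249 FPKM in sgNAT10 libraries 1 to 3. They were 460, 625 and 183 FPKM in wild-type libraries 1 to 3, and they ranked the TC1 cell libraries in the same order as Cdh1. The MCA205 libraries sgNAT10 2 and wild type 1, lowest there in Cdh1, had intestine sums of 1.61 and 6.25 FPKM, and the other 4 had 155 to 464 FPKM. Epcam, an epithelial adhesion gene, was listed at 0 and 0.303 FPKM in those 2 libraries and at 6.21 to 15.7 FPKM in the other 4 MCA205 libraries, and it was not called in any comparison (adjusted p of 0.737, 0.282 and 0.414 in MCA205 cells, TC1 cells and tumours). In sgNAT10 tumours 1 to 3 Cdh1 did not go with the intestine markers, at 3.77, 1.51 and 3.08 FPKM beside sums of 18.7, 22.6 and 14.7 FPKM. In wild-type tumours 1 to 3 it was 1.25, 2.42 and 3.59 FPKM beside sums of 2.00, 37.3 and 35.0 FPKM. Wild-type tumour 1 was thus the lowest of its group in both. The part of intestinal RNA in these levels was not tested.

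Of 19 epithelial junction and keratin genes, 2 were called higher and 4 lower in MCA205 cells, 3 higher and 0 lower in TC1 cells, and 0 in tumours, beside 40.6%, 37.9% and 17.4% of all genes called in either direction. Those in MCA205 cells included the desmosome gene Pkp3 at 0.62 ± 0.05 and the catenin gene Ctnna1 at -0.46 ± 0.04 (adjusted p of 0.000148 and 0.000196). Those in TC1 cells were Ctnnb1, the beta-catenin gene, at 0.67 ± 0.06, Ctnnd1, which encodes p120-catenin, at 0.51 ± 0.06, and F11r, a tight junction adhesion gene, at 0.43 ± 0.13. The list's median log2 fold change was -0.83, -0.30 and -0.38 in MCA205 cells, TC1 cells and tumours. Among epithelial regulators, Klf4, a zinc finger factor, rose in MCA205 cells and fell in TC1 cells (1.27 ± 0.11 and -1.05 ± 0.32, adjusted p of 0.000173 and 0.0390), as Snai2 and Prrx1 did. It had 17.9, 18.5 and 19.6 FPKM in sgNAT10 MCA205 cells against 6.53, 9.14 and 7.81 FPKM in wild-type MCA205 cells, and 5.74, 13.5 and 15.2 FPKM in sgNAT10 TC1 cells against 23.7, 23.1 and 22.3 FPKM in wild-type TC1 cells. Grhl1, a grainyhead factor, fell in MCA205 and TC1 cells (-1.08 ± 0.34 and -1.98 ± 0.25). Its levels were low, at 0.310 to 0.425 FPKM in sgNAT10 and 0.514 to 1.12 FPKM in wild-type MCA205 cells. In TC1 cells they were 0.171 to 0.207 FPKM with sgNAT10 and 0.656 to 0.814 FPKM in wild type. In all, 1 regulator was higher and 1 lower of 9 tested in MCA205 cells, 0 and 3 of 10 in TC1 cells, and 0 and 1 of 10 in tumours. The other regulator called was Cgn, the tight junction gene cingulin, which fell in TC1 cells and tumours (-1.80 ± 0.15 and -1.87 ± 0.41). In tumours it too was low, at 0.135 to 0.170 FPKM in the sgNAT10 group and 0.284 to 0.850 FPKM in the wild-type group.

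Other transcription factors linked to the transition were called in both directions. In MCA205 cells 7 were higher and 7 lower of 21 tested, in TC1 cells 3 and 7 of 18, and in tumours 1 and 6 of 21. Beside this list and those below, 21.2% of all genes were called higher and 19.4% lower in MCA205 cells. These shares were 15.9% and 22% in TC1 cells and 7.65% and 9.72% in tumours. Foxc2, a forkhead factor of mesenchyme, rose in MCA205 cells and fell in TC1 cells and tumours. It had 16, 15.4 and 14.6 FPKM in sgNAT10 MCA205 cells against 7.64, 7.80 and 6.93 FPKM in wild-type MCA205 cells (1.05 ± 0.07, adjusted p = 4.71e-05). In TC1 cells it had 1.01, 0.972 and 1.01 FPKM with sgNAT10 against 9.22, 8.15 and 9.07 FPKM in wild type (-3.18 ± 0.11, adjusted p = 1.03e-05). Tumours held 4.45, 5.22 and 6.19 FPKM in the sgNAT10 group against 15.2, 11.7 and 6.79 FPKM in the wild-type group (-1.23 ± 0.34, adjusted p = 0.0472), whereas Snai2 had a log2 fold change of 0.00 there. Its relative Foxc1 fell in MCA205 cells (-1.32 ± 0.08) and in tumours (-0.63 ± 0.16). Sox9, a chondrogenic factor, rose in MCA205 cells (1.33 ± 0.04), Tcf4, which encodes a class I helix-loop-helix partner of TWIST, fell there (-0.90 ± 0.03), and Sox4 and Tead1 fell in TC1 cells (-0.76 ± 0.07 and -0.59 ± 0.05). In tumours Six2 and Tcf3 fell (-1.59 ± 0.23 and -0.46 ± 0.12), and Klf8 was the gene that rose (1.35 ± 0.25).

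TGF-beta is a main inducer of the factors. Of 21 genes of its pathway, 6 were higher and 7 lower in MCA205 cells, 3 and 8 in TC1 cells, and 0 and 2 in tumours. Tgfb1, the ligand, had 31.4, 33.3 and 33.0 FPKM in sgNAT10 MCA205 cells against 18, 20.0 and 19.6 FPKM in wild-type MCA205 cells, with no overlap (0.77 ± 0.04, adjusted p = 3.07e-05). In tumours it fell, to 38.9, 32.8 and 29.0 FPKM in the sgNAT10 group, against 47.3, 42.0 and 48.3 FPKM in the wild-type group (-0.56 ± 0.15, adjusted p = 0.0410), and Tgfb2 fell too (-0.90 ± 0.22). The co-receptor gene Eng and the ubiquitin ligase gene Smurf1 rose in MCA205 cells (1.2 ± 0.05 and 1.01 ± 0.04) and Smad4, the common mediator, fell (-0.42 ± 0.03). In TC1 cells the co-repressor gene Tgif1, the ligase gene Smurf2 and the latent binding gene Ltbp1 fell (-1.45 ± 0.07, -0.96 ± 0.07 and -1.13 ± 0.10), and the inhibitory Smad7 rose (0.82 ± 0.08).

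Cofactors and stability regulators of SNAI, TWIST and ZEB proteins had 3 members higher and 12 lower of 22 in MCA205 cells, 4 and 5 in TC1 cells, and 0 and 6 in tumours. Of all genes, 40.6%, 37.9% and 17.4% were called in either direction in these comparisons. Prkd1, a kinase gene whose product phosphorylates SNAIL, fell in TC1 cells, to 3.04, 3.42 and 2.88 FPKM with sgNAT10, against 11.4, 11.8 and 12.4 FPKM in wild type (-1.97 ± 0.09, adjusted p = 2.28e-05). In tumours it was at 0.0898, 0.0811 and 0.142 FPKM in the sgNAT10 group, against 1.49, 1.83 and 1.57 FPKM in the wild-type group (-4.03 ± 0.32, adjusted p = 0.00202). The F-box gene Fbxl14, whose product marks SNAI and TWIST proteins for degradation, fell in MCA205 cells and rose in TC1 cells (-0.41 ± 0.03 and 0.37 ± 0.06). Pak1 and Fbxo11 fell in TC1 cells (-1.26 ± 0.07 and -0.85 ± 0.07). In MCA205 cells the corepressor genes Hdac2 and Suz12 and the kinase gene Lats2 fell (-0.50 ± 0.05, -0.41 ± 0.06 and -0.50 ± 0.05), and in tumours Hdac1, Suz12 and Ajuba fell (-0.49 ± 0.11, -0.49 ± 0.11 and -1.60 ± 0.19).

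Other mesenchymal marker genes had 3 members higher and 13 lower of 26 tested in TC1 cells, with a median log2 fold change of -1.05, beside -0.08 for all genes. In MCA205 cells 6 were higher and 4 lower of 25, and in tumours 4 and 4 of 26. Mmp2, a gelatinase gene, had 82.5, 85.2 and 83 FPKM in sgNAT10 MCA205 cells against 30.3, 30.0 and 29.2 FPKM in wild-type MCA205 cells (1.47 ± 0.03, adjusted p = 4.85e-07). In TC1 cells it had 0.752, 0.498 and 0.703 FPKM with sgNAT10 against 15.4, 14.4 and 15 FPKM in wild type (-4.69 ± 0.14, adjusted p = 8.18e-06). Pdgfra, a receptor of fibroblasts, rose in MCA205 cells and fell in TC1 cells (1.30 ± 0.05 and -1.81 ± 0.19). The related receptor gene Pdgfrb fell in MCA205 cells (-1.02 ± 0.05, adjusted p = 2.09e-05). The collagen genes Col1a2 and Col3a1 fell in TC1 cells (-6.11 ± 0.25 and -3.31 ± 0.25), as did the matrix gene Sparc (-1.26 ± 0.11). Col1a2 fell in MCA205 cells as well, to 2.21, 0.131 and 2.45 FPKM with sgNAT10, against 28.3, 30.3 and 27.7 FPKM in wild type (-4.42 ± 0.74, adjusted p = 0.00304). In tumours the matrix gene Postn rose, to 218, 278 and 254 FPKM in the sgNAT10 group, against 33.4, 37.1 and 66.9 FPKM in the wild-type group (2.35 ± 0.24, adjusted p = 0.00365). Acta2, the smooth muscle actin gene, fell there, to 7.91, 10.5 and 9.18 FPKM in the sgNAT10 group, against 58.6, 59.97 and 25.1 FPKM in the wild-type group (-2.52 ± 0.37, adjusted p = 0.00794).

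Fibronectin receptors and matrix assembly genes had 2 higher and 4 lower of 13 in MCA205 cells, 4 and 5 of 14 in TC1 cells, and 1 and 1 of 14 in tumours. Itga5, the alpha chain gene of the main fibronectin receptor, rose in MCA205 cells (0.44 ± 0.04), where its partner Itgb1 fell (-0.40 ± 0.05). Itgb1 also fell in TC1 cells (-0.83 ± 0.09), and the syndecan gene Sdc4 rose there (1.49 ± 0.18). The crosslinking enzyme gene Tgm2 rose in MCA205 cells and in tumours (1.41 ± 0.05 and 0.98 ± 0.23). Intermediate filament and cadherin relatives had 3 higher and 0 lower of 9 in MCA205 cells, 2 and 2 of 9 in TC1 cells, and 2 and 2 of 10 in tumours. Cdh13, which encodes a cadherin without a cytoplasmic tail, rose in MCA205 cells and tumours (2.10 ± 0.06 and 0.69 ± 0.15). The filament linker gene Plec rose in MCA205 cells and fell in TC1 cells (0.36 ± 0.05 and -0.89 ± 0.08), and Des, the muscle filament gene desmin, rose in tumours (2.10 ± 0.28).

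Tumours hold host cells that express several of the 10 genes. Fibroblast markers summed to 886 to 1125 FPKM in the sgNAT10 group and 552 to 1146 FPKM in the wild-type group, with 2 of 10 called higher and 0 lower. Endothelial markers summed to 95.7 to 107 FPKM and 49.8 to 65.8 FPKM in the same order, without overlap, with 7 of 9 higher. Skeletal muscle markers reached 104 to 152 FPKM in sgNAT10 tumours and 27.0 to 34.4 FPKM in wild-type tumours, with 5 of 7 higher. Pericyte and smooth muscle markers gave 50.4 to 59.0 FPKM and 33.4 to 46.0 FPKM (1 of 9 higher), and macrophage markers 1203 to 1385 FPKM and 1268 to 1790 FPKM (2 of 11 lower). T and NK cell markers summed to 14.5 to 24.1 FPKM in sgNAT10 tumours and 7.24 to 19.8 FPKM in wild-type tumours, with 0 of 8 called, and epidermis markers to 1.37 to 185 FPKM and 2.28 to 9.88 FPKM, with 0 of 5 tested called. All defining markers were above 0 in both groups except 1 epidermis marker in wild-type tumours and, of the intestine list, 2 markers in sgNAT10 and 1 in wild-type tumours. The part of these cells in the tumour levels of Snai1, Fn1 and the other members was not tested. Among cultured cells, fibroblast markers summed to 84.5 to 101 FPKM in sgNAT10 TC1 cells and 257 to 308 FPKM in wild-type TC1 cells (7 of 10 lower), and to 286 to 296 FPKM in sgNAT10 MCA205 cells and 136 to 155 FPKM in wild-type MCA205 cells (2 higher and 2 lower of 10). In MCA205 cells 1 gene carried that sum. Dcn, the decorin gene, averaged 195 FPKM with sgNAT10 and 14.2 FPKM in wild type, and the other 9 markers summed to 88.6 to 101 FPKM with sgNAT10 and 125 to 137 FPKM in wild type. In TC1 cells the other 9 summed to 81.3 to 98.6 FPKM with sgNAT10 and 242 to 303 FPKM in wild type. The part of such cells in the members' levels was not tested. Macrophage markers summed to 84.7 to 146 FPKM in sgNAT10 TC1 cells and 50.7 to 59.1 FPKM in wild-type TC1 cells, with 5 of 11 called higher.

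Transcripts added detail to 3 members. The shorter of the Twist2 transcripts took nearly all counts in most libraries. Twist2-202 held 29.3% in sgNAT10 MCA205 library 1 and 30.5% in sgNAT10 TC1 library 1, and at most 1.75% in the other libraries of cultured cells. In tumours it held 20.4% in wild-type library 1 and 21.6% in sgNAT10 library 3, and at most 2.34% in the others. With the most abundant transcript alone, the Twist2 difference in MCA205 cells was 0.42 ± 0.16 and not called (adjusted p = 0.0799). Prrx1-202 held 47.9% of Prrx1 counts in sgNAT10 TC1 library 2 and 41.7% in wild-type TC1 library 2, against 9.86% to 14% in the other 4 TC1 cell libraries, so this split went with the library number and not with the genotype. Fn1 has 2 cassette exons on chromosome 1, one of 273 bases from 71613763 to 71614035 and one of 270 bases from 71603660 to 71603929, in the places of the extra domains that mark cellular fibronectin. Transcripts with the first made up 20.2 ± 2.56% in sgNAT10 TC1 cells and 30.5 ± 0.904% in wild-type TC1 cells, 23.5 ± 3.33% and 16.2 ± 5.24% in sgNAT10 and wild-type MCA205 cells, and 61.2 ± 7.72% and 48.6 ± 26.0% in sgNAT10 and wild-type tumours (SD, n = 3). Only in TC1 cells do the groups keep apart. For the second exon the shares were 56.6 ± 16.8% and 64.9 ± 2.58% in sgNAT10 and wild-type TC1 cells, 47.9 ± 9.25% and 44.0 ± 3.52% in sgNAT10 and wild-type MCA205 cells, and 82.7 ± 10.4% and 74.5 ± 14.8% in sgNAT10 and wild-type tumours. These shares rest on the authors' assignment of reads to transcripts.

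The genes whose pattern over the 6 group means lay closest to each member were found among 10243 other genes by the mean absolute difference in centred log2(FPKM + 1). They were Arsj and Gng8 for Snai2 (0.14 and 0.15), Ankrd13b and Pck2 for Twist2 (0.09 and 0.14), and Nabp1 and Col4a2 for Prrx1 (0.15 and 0.15). Snai1 had Nmrk1 and Lrp1 (0.06 and 0.06), Twist1 had Sesn2 and Tiam1 (0.09 and 0.09), Zeb1 had Btg1 and Pigbos1 (0.07 and 0.08), and Zeb2 had Mllt6 and Tusc3 (0.05 and 0.06). For Cdh2 they were Lemd3 and Ppp1r15b (0.04 and 0.04), for Vim Dpp7 and Vegfd (0.12 and 0.15), and for Fn1 Naaa and Dpt (0.13 and 0.15). Among the members themselves Snai1 and Zeb2 were closest (0.07), whereas the nearest member to Snai2 was Prrx1 at 0.36 and to Twist2 was Snai2 at 0.49. The distance is not scaled for how much a gene varies, so genes that vary little lie closer together. The mean absolute deviation over the 6 means was 0.28 for Snai1 and 0.25 for Zeb2, against 0.50 for Snai2 and 0.63 for Twist2. These values describe 6 means and carry no test.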

How the data were processed

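Per the labels' protocols, RNA for the 18 libraries came from RNeasy columns and was prepared by Illumina methods. Tools and build are known from the submitters' processing notes, which list the mm10 build and, with neither role nor version, Bowtie2, featureCounts, Trim Galore and FastQC. The sources used here do not say which program produced the values. There are 3 deposited tables with FPKM values and estimated counts per transcript, per the file headers. The FPKM values are per transcript length and library size as deposited by the authors. As deposited, the estimated counts were whole, and rounding changed none. KO columns are read as sgNAT10. Columns without a sample numbered 0.

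Values were summed per gene. The members and lists were chosen with earlier results of these data known. For each table, edgeR quasi-likelihood tests were run on the counts of its 6 libraries (TMM, default expression filter, Benjamini-Hochberg adjustment over all genes, adjusted p under 0.05). SEs are approximate, the log2 fold change divided by the square root of F. Differences of effects were interaction contrasts over 12 libraries. Named genes were the 10 members, up to 4 called genes of each list and comparison with the smallest p, Cdh1 and Epcam, and the 2 genes closest in pattern among those of at least 5 FPKM in some group mean. One gene that this rule names is not reported here. The tumour values of Foxc2 were added after its values were seen. Levels are means ± SD of FPKM over 3 libraries. Libraries of a group differed by more than sampling noise (chi-square ratio of at least 10.9). No strand setting is known, so overlapping and antisense genes depend on how the authors assigned reads. Promoters are from RefSeq, which matched 6 of the 8 members not on chromosome 18. Deeper libraries give smaller counting errors, and every member had at least 474 counts in each library.

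Alternatives were scaling by library size only or by RLE, a 1 CPM filter or none, a replicate block, DESeq2, limma-trend at pseudocounts of 0.1 and 1 on log2 FPKM, a 1.2-fold minimum, the most abundant transcript alone, each library left out, and, in MCA205 cells, a liver and intestine covariate and the fit without wild type 1 and sgNAT10 2. The covariate for TC1 cells and tumours was added after seeing the data. The fits were tested on simulated counts. Software was Python 3.11.15 with pandas 2.3.3, matplotlib 3.10.9 and numpy 2.4.6, and R 4.3.3 with DESeq2 1.42.0, limma 3.58.1 and edgeR 4.0.16.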

Additional observations from a re-analysis of the deposited data

Results flagged for a closer look

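Differences between settings in the effect of sgNAT10, tested as interaction contrasts with edgeR, passed for the members below, each on the log2 scale. Between MCA205 cells and TC1 cells the effect was higher in MCA205 cells for Snai2 (3.25 ± 0.15 SE, adjusted p = 1.61e-07), Twist2 (2.09, adjusted p = 0.000128), Prrx1 (1.97, adjusted p = 1.56e-05), Fn1 (0.84, adjusted p = 0.0172), Zeb1 (0.80, adjusted p = 6.43e-05), Vim (0.53, adjusted p = 0.00285) and Cdh2 (0.29, adjusted p = 0.0251). Snai2, Twist2 and Prrx1 were called in opposite directions in the 2 lines. Fn1 and Cdh2 fell in both and fell less in MCA205 cells. The Cdh2 difference was lost when any of 7 of the 12 libraries was left out, at 0.24 to 0.29 and adjusted p of 0.0504 to 0.0559.

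Between TC1 tumours and TC1 cells the effect was higher in tumours for Snai2 (2.40, adjusted p = 4.14e-06), Fn1 (1.63, adjusted p = 0.00183), Twist2 (1.17, adjusted p = 0.0129), Prrx1 (1.08, adjusted p = 0.00191) and Zeb1 (0.85, adjusted p = 0.0238). Of these 5 genes none was called between sgNAT10 and wild-type tumours by edgeR, where the unadjusted p of Fn1, Prrx1 and Twist2 was 0.0157, 0.0316 and 0.0487, with log2 fold changes of 0.61, 0.31 and, in the other direction, -0.36. Fn1 was called there by DESeq2, with a 1 CPM filter and by limma-trend at both pseudocounts. The Zeb1 difference was lost without sgNAT10 tumour 1 or 2, or without TC1 cell library sgNAT10 1 or 3, at 0.74 to 0.88 and adjusted p of 0.0529 to 0.0711. Tumours hold host cells, and the part of their transcripts in these differences was not tested.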

How the results depend on the processing

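Members called numbered 7 in MCA205 cells, 6 in TC1 cells and 1 in tumours. With a 1.2-fold minimum they were 3 in MCA205 cells and 0 in tumours, and with the most abundant transcript alone 4 in MCA205 cells. The tumour count was 2 with a 1 CPM filter, DESeq2 or limma-trend with either pseudocount, and 0 with no filter, a replicate block, or the liver and intestine covariate chosen after seeing the data. With 1 library left out it ran from 0 to 2, being 0 without sgNAT10 1, sgNAT10 2, sgNAT10 3 or wild type 2, and 2 without wild type 3. Twist2 in tumours was called without wild type 3 (-0.48, adjusted p = 0.0465). To look for pairing, the deviations of each library from its own group were correlated over genes between sgNAT10 and wild-type libraries. These are not correlations of whole expression profiles. Same-numbered libraries gave -0.51, -0.49 and 0.15 in MCA205 cells. These values were -0.09, -0.01 and 0.08 in TC1 cells, and -0.12, 0.09 and -0.19 in tumours. Differently numbered libraries ranged from -0.48 to 0.69, -0.18 to 0.15 and -0.14 to 0.22 in the same order. No same-numbered value lay above these ranges, yet the split of Prrx1 transcripts in TC1 cells went with the library number. The highest value, 0.69, joined MCA205 libraries sgNAT10 2 and wild type 1, both low in liver and intestine transcripts. These correlations therefore cannot decide whether replicate numbers pair the libraries. The block lost Zeb2 and Fn1 in MCA205 cells (adjusted p of 0.0657 and 0.0741), Snai1 in tumours (0.0990), Cdh2 between the lines (0.0708) and Zeb1 between tumours and TC1 cells (0.0936), and gave 5, 6 and 0 members called in MCA205 cells, TC1 cells and tumours.

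Differences that were not called changed sign. Twist1 in MCA205 cells was 0.016 with no filter and -0.067 to 0.0099 with 1 library out. Zeb2 in TC1 cells was 0.047 with RLE, 0.024 with library size, 0.031 with no filter, 0.040 with 1 CPM, 0.051 with DESeq2, 0.051 and 0.054 with limma-trend at pseudocounts of 1 and 0.1, and -0.0081 to 0.10 with 1 library out. Snai2 in tumours was 0.0073 with RLE, 0.11 with library size, 0.035 with 1 CPM, 0.10 and 0.11 with limma-trend at pseudocounts of 1 and 0.1, 0.0018 with the block, and -0.065 to 0.11 with 1 library out. Zeb1 in tumours was -0.23 with the covariate and -0.066 to 0.26 with 1 library out, and Zeb2 in tumours -0.52 with its most abundant transcript. Snai1 between the lines ranged from -0.044 to 0.13 with 1 library out. Between tumours and TC1 cells Vim was 0.067 with library size and -0.17 to 0.11 with 1 library out, and Twist1 -0.019 to 0.22. The cause was not tested.

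Snai2, Twist2, Prrx1, Zeb1, Cdh2 and Fn1 in TC1 cells kept direction and call under every alternative run, except Prrx1 with its most abundant transcript (-0.96, adjusted p = 0.0571). For Snai1, Snai2, Twist1, Zeb1, Zeb2, Cdh2 and Vim there, the main log2 fold change was lower than any with 1 library left out. Cdh2 was -0.60 against -0.53 to -0.48, and Zeb1 -0.80 against -0.78 to -0.67. The median of all genes was -0.08 in the main fit and -0.02 to 0.05 with 1 library left out. Snai1 in MCA205 cells was called with DESeq2 and limma-trend and with the covariate (adjusted p of 0.0110, 0.0444, 0.0454 and 0.00819). Between tumours and TC1 cells, library size alone moved the median of all genes to 0.16, against 0.02. No setting replaces separate cultures or animals.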
